A study of Mus musculus with 27 samples.

Results

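The conjugating phase II enzymes were followed in mouse liver as 60 genes of the 54532 in the deposited table, 22046 of them protein coding. They are the protein-coding genes whose symbols begin with Ugt1a, Ugt2, Ugt3, Sult or Mgst, or with Gst and the class letter a, o, p, k, t or z and a number. Genes of the Gstm class were not included. By class these are 21 UDP-glucuronosyltransferases (UGT), 21 sulfotransferases (SULT) and 18 glutathione S-transferases with the microsomal ones (GST). Every library came from the liver of wild-type C57/BL6J mice, and the 27 libraries fell into 5 groups. PHx48_ETO (n = 4) and PHx24_ETO (n = 4) were taken 48 h and 24 h after removal of 70% of the liver in mice given etomoxir. PHx48 (n = 7) and PHx24 (n = 7) were taken at the same times after resection without etomoxir, and sham (n = 5) after a sham operation whose sampling time the labels do not give. Etomoxir, an irreversible inhibitor of the fatty acid transporter CPT1, was given by intraperitoneal injection (12.5 mg/kg) 4 h ahead of the resection. The mice kept to 48 h received a further dose 24 h after it. The labels give neither the sex nor the age of the mice, do not say whether mice without etomoxir received a vehicle, and do not say whether every library is a different animal. P-values therefore measure the spread between these libraries.

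These enzymes make foreign and internal compounds more water soluble by joining them to a polar group. UGT take the group from UDP-glucuronic acid, SULT from the sulfate donor PAPS, and GST from glutathione. The liver holds most of this capacity in the body, where it clears bilirubin, steroids, bile acids, thyroid hormone and many drugs, and GST also detoxify reactive epoxides and products of lipid peroxidation. Genes of a family often lie side by side, and the Ugt1a genes share their last exons.

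The Ugt2b genes, all in 1 cluster on chromosome 5 (GRCm38, chr5:86889767-87490871), included members called lower and members called higher after resection, and promoters of that cluster are shown for that reason. Each line runs 5′ to 3′ on the strand of the gene and ends at the base before the gene's start in the deposited table. The sequences are RefSeq's (build GRCm38.p6), and capitals mark matches to GTTA and TAAC with 5 bases of any kind between them, which are the outer letters of the textbook HNF1 recognition sequence and read the same on both strands. The windows are those of Ugt2b1 (chr5:86926531-86926653, minus strand), Ugt2b36 (chr5:87092556-87092705, minus), Ugt2b38 (chr5:87424204-87424353, minus), Ugt2b34 (chr5:86906938-86907087, minus), Ugt2b35 (chr5:87000710-87000859, plus) and Ugt2a3 (chr5:87337196-87337345, minus). Ugt2b1, Ugt2b36, Ugt2b38 and Ugt2a3 were lower after resection at both times, and Ugt2b34 and Ugt2b35 were higher at 24 h.
Ugt2b1: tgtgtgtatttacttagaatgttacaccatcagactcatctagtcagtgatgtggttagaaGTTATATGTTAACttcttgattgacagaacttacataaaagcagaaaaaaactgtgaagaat
Ugt2b36: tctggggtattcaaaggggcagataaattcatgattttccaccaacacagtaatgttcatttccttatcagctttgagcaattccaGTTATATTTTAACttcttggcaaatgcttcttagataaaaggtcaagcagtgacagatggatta
Ugt2b38: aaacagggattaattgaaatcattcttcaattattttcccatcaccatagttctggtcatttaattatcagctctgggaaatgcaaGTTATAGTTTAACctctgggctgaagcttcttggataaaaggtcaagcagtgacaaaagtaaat
Ugt2b34: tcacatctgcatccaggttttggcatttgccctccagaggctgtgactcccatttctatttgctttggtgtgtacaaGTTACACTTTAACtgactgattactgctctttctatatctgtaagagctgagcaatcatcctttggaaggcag
Ugt2b35: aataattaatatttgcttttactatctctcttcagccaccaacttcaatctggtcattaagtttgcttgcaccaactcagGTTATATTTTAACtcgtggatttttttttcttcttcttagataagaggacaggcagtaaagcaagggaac
Ugt2a3: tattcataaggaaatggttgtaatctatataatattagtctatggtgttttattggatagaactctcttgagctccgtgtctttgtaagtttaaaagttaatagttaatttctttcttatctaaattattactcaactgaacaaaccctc
The match began 62 bases before the gene in Ugt2b1, 64 bases before it in Ugt2b36 and Ugt2b38, 70 in Ugt2b35 and 73 in Ugt2b34, and the printed Ugt2a3 window held none. Ugt2b36 and Ugt2b38 were identical at 70.5% of their aligned bases, and every other pair of the 6 printed windows, of 123 bases in Ugt2b1 and 150 bases in the others, at 50 to 59.4%. Searched on both strands in the 250 bases before the start, the pattern stood in 8 of the 52 members with a promoter entry, which were 7 of the 10 Ugt2 genes (Ugt2b1, Ugt2b5, Ugt2b34, Ugt2b35, Ugt2b36, Ugt2b37 and Ugt2b38) and Ugt3a1. It stood in 84 of 27025 mouse promoters, or 0.311%. The pattern was chosen after these windows had been read. The letters of the antioxidant response element core, TGACNNNGC, stood in 2 of the 52 (Gsta3 and Mgst1), against 10.1% of all promoters. Those of the AHR core, GCGTG, stood in 7 of the 52 (Ugt1a5, Ugt1a8, Sult1d1, Gsta2, Gstp1, Gstp3 and Mgst3), against 28.2%. The 3 patterns were searched separately, so that matches may share bases, and a match describes letters only.

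The libraries held 14903757 to 18446372 counts. The sum of the 11 hepatocyte markers found in the table (of 12 listed) lay between 34851 and 73807 FPKM in every library, so all libraries carried liver RNA. The 12 skeletal muscle markers summed to 78.8 FPKM in PHx48_ETO 4, 548 FPKM in PHx48 3, 1724 FPKM in PHx24 1, 4553 FPKM in sham 1 and 69.9 FPKM in sham 2, and to at most 10.99 FPKM elsewhere. The 10 exocrine pancreas markers summed to 156 FPKM in PHx48 3 and 972 FPKM in sham 2, and to at most 35.4 FPKM elsewhere, and gut markers stood out in sham 2. PHx24 2 and PHx24_ETO 2 lay apart from their groups in many members, as shown with the values. The sum of 8 cholangiocyte markers was 251 FPKM in PHx24_ETO 2 against a median of 137 FPKM in its group, and 269 FPKM in PHx24 2 against a median of 139 FPKM. In PHx24 2 the sum of 8 monocyte and neutrophil markers was 83.3 FPKM, against a median of 8.13 FPKM. Markers of other cells also moved with the groups. The 8 sinusoidal endothelial markers summed to 18.6 to 33.8 FPKM in PHx48 and 27.5 to 34.02 FPKM in PHx24, against 37.1 to 47.3 FPKM in sham, with 6 of 8 lower in PHx48 and 3 of 8 lower in PHx24. The 8 Kupffer cell markers summed to 60.6 to 89.5 FPKM in PHx24_ETO, against 87.9 to 165 FPKM in PHx24, and 1 of 8, Cd5l, was called lower (median log2 fold change -0.91). Of the 11 hepatocyte markers, 0 were higher and 5 lower in PHx48 against sham, and 2 were higher and 5 lower in PHx24 against sham. The 8 markers of fat cells summed to 121 to 499.6 FPKM in PHx48 and 56.2 to 175 FPKM in PHx24, against 974 to 1589 FPKM in sham, and 1 of 7 tested, Car3, which liver also expresses, was called lower at both times. In the tests described below, 36.5% of all genes were called in PHx48 against sham, 35% in PHx24 against sham and 2.9% in PHx24_ETO against PHx24. The part of other cells in the members' levels was not tested. In bulk tissue, fewer cells of a type and less RNA per cell cannot be told apart. Near-identical stretches also limit single genes: of the 100-base windows of each transcript, 81.8% in Gsta1, 35.0% in Gsta2, 52.8% in Gstp1, 63.5% in Gstp2, 23.9% in Gstt3, 24.7% in Ugt2b5, 24.2% in Ugt2b38 and 57.2 to 100% in the Ugt1a genes also occurred in another gene. Ugt2b5 and Ugt2b38 shared these windows with each other.

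Gstp1, Mgst1 and the Ugt2b genes made up most of the members' summed FPKM. Levels are in FPKM, fragments per kilobase of transcript and per fixed number of reads, and can be compared between genes since they are per length. Groups of 4 or 5 libraries are given by the value of each library in order of replicate number, and PHx48 and PHx24, with 7 libraries each, by the lowest and highest value and the median. Summed over all 60 members the level was 5750.4 ± 900.0 FPKM in PHx48_ETO (SD, n = 4), 5830.1 ± 784 FPKM in PHx48 (n = 7), 4248 ± 587 FPKM in PHx24_ETO (n = 4), 5735 ± 662 FPKM in PHx24 (n = 7) and 8052 ± 1074 FPKM in sham (n = 5). As a share of all counts the members took 1.09% in PHx48_ETO, 1.06% in PHx48, 0.788% in PHx24_ETO, 1.07% in PHx24 and 1.33% in sham. GST held the largest part of the sum, with 4024 ± 679.6 FPKM in PHx48_ETO, 4335 ± 557 FPKM in PHx48, 3079 ± 444 FPKM in PHx24_ETO, 3937 ± 491 FPKM in PHx24 and 5648 ± 609 FPKM in sham. UGT summed to 1356 ± 172 FPKM in PHx48_ETO, 1105 ± 201 FPKM in PHx48, 788 ± 282 FPKM in PHx24_ETO, 1269 ± 247 FPKM in PHx24 and 1877 ± 421 FPKM in sham. The SULT sums, with 371 ± 72.4 FPKM in PHx48_ETO, 390.3 ± 83.5 FPKM in PHx48, 381 ± 216 FPKM in PHx24_ETO, 529 ± 115 FPKM in PHx24 and 527 ± 97.4 FPKM in sham, were the smallest and spread widely among the PHx24_ETO libraries. The plot of summed levels shows these sums library by library.

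**Figure D1:**
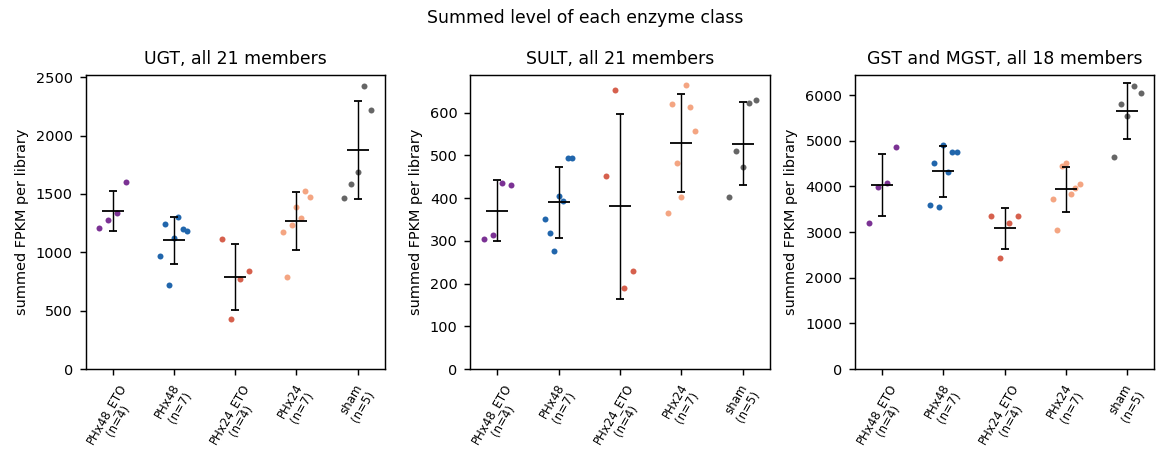
Summed FPKM per library (y axis, linear) of the UGT, SULT and GST genes in the 5 groups, with 1 point per library and bars for the mean ± SD. The GST sum was 4651 to 6197 FPKM in the 5 sham libraries and 2421 to 3352 FPKM in the 4 PHx24_ETO libraries.

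Of the 60 members, 39 reached 1 FPKM in at least 4 libraries and were tested: 16 UGT, 8 SULT and 15 GST. The 21 others were Ugt1a2, Ugt1a8, Ugt1a10, Ugt2a1, Ugt2a2, Sult1c1, Sult2a1 to Sult2a6, Sult2b1, Sult3a1, Sult3a2, Sult4a1, Sult6b1, Sult6b2, Gsto2, Gstt4 and Mgst2. 7 of them (Ugt2a1, Ugt2a2, Sult1c1, Sult2a3, Sult2a4, Sult2a6 and Sult3a2) had 0 counts in all 27 libraries, which allows up to 3 counts in each. Sult2a1 and Sult3a1, which in mouse are expressed mainly in female liver, were among the untested, and no gene from Sult2a1 to Sult2a6 exceeded 0.321 FPKM in any library. Sult6b2 reached 34.6 FPKM in sham 2 and at most 0.223 FPKM elsewhere. Sult2b1 (2.03 FPKM) and Mgst2 (1.55 FPKM) peaked in the same library, with at most 0.120 and 0.271 FPKM in any other. In that library the summed markers of gut epithelium stood at 425 FPKM, against a sham median of 112 FPKM, and those of exocrine pancreas at 972 FPKM, against 26.1 FPKM. The part of that tissue in these 3 genes was not tested. The remaining 18 untested members stayed at or below 0.456 FPKM.

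More members were lower than higher after resection. Counts were compared with edgeR's quasi-likelihood test on all 12376 genes tested, and a gene was called at a Benjamini-Hochberg adjusted p under 0.05. In PHx24 against sham, 6 members were higher and 16 lower of 39, where 35% of all genes tested were called, 19.1% higher and 15.8% lower. In PHx48 against sham, 8 were higher and 15 lower, where 36.5% of all genes were called, 19.5% higher and 17% lower. The lower calls thus came to 41.0% of the tested members at 24 h and 38.5% at 48 h. The median log2 fold change of the tested members was -0.39 at 24 h and -0.37 at 48 h, beside 0.01 for all genes at each time. The members' FPKM did not overlap between the 2 groups for 13 members in PHx24 against sham (17.7% of all genes) and for 15 in PHx48 against sham (19.9%). The 2 comparisons share their sham libraries. Without sham 1 the higher calls in PHx48 against sham numbered 5. Scaling to the library total moved the median of all genes to 0.11 in PHx24 against sham and to 0.23 in PHx48 against sham, and the calls in PHx48 against sham then split into 9 higher and 11 lower.

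Between the times and with etomoxir fewer members were called. In PHx48 against PHx24, 3 were higher and 3 lower, where 11.6% of all genes were called, 6.19% higher and 5.41% lower, and 2 members did not overlap (4.92% of all genes). With scaling to the library total this split became 5 higher and 2 lower, and without PHx24_ETO 2 the counts were 6 and 5. In PHx24_ETO against PHx24, 1 member was higher and 7 were lower, where 2.9% of all genes were called, 1.58% higher and 1.33% lower. The median of the 39 was -0.60, beside 0.01 for all genes, 29 of them lay below 0 and 3 did not overlap (3.24% of all genes). Of the 7 lower calls, only that of Ugt1a9 was kept whichever single library was left out. Lower calls numbered 16 without PHx24_ETO 1, 11 without PHx24 2, 3 without PHx24_ETO 2 and 1 without PHx24_ETO 3. They numbered 4 without PHx24_ETO 4 or without PHx24 3 or 4, and 0 in a fit of these 2 groups alone. In PHx48_ETO against PHx48, edgeR called 0 of 39 members, where 0.21% of all genes were called, 0.129% higher and 0.0808% lower, with 4 members at an unadjusted p under 0.05 (8.11% of all genes). DESeq2 and limma called 0 members there, and 0.549% and 0.259% of all genes. 2 members, Ugt2b34 and Gstp1, did not overlap there (2.22% of all genes). PHx24 and PHx48 each enter several of these comparisons, so the comparisons are not independent.

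**Figure D2:**
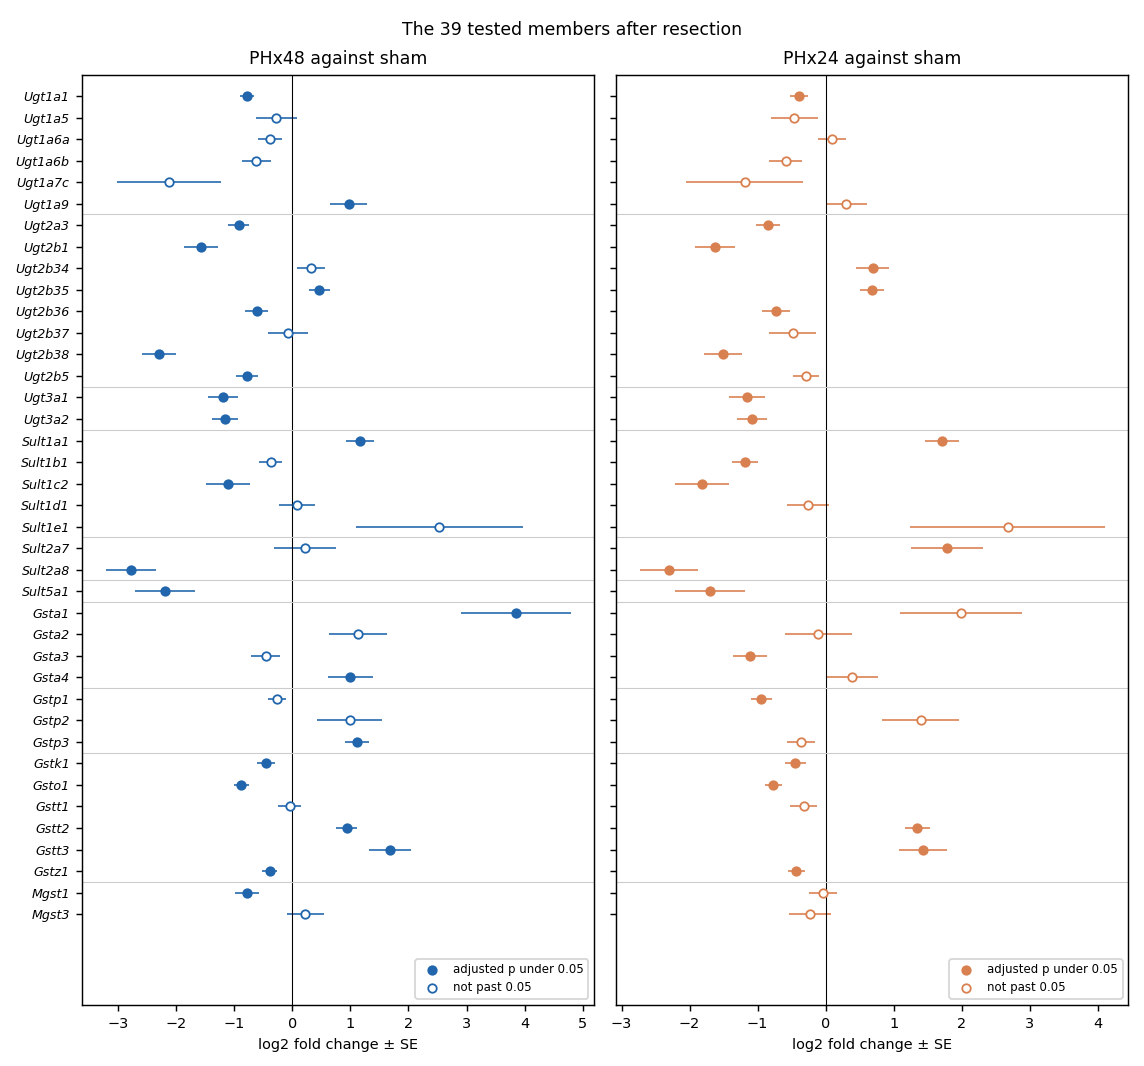
Log2 fold change ± SE (x axis) of the 39 tested members in PHx48 against sham (left) and PHx24 against sham (right), with genes grouped by family (y axis). Filled points passed an adjusted p of 0.05 and open points did not. Sult2a8 had the lowest log2 fold change at both times, -2.78 at 48 h and -2.30 at 24 h, and Gsta1 the highest at 48 h, 3.85.

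More glucuronosyltransferases were lower than higher after resection. Of 16 tested UGT, 2 were higher and 7 lower in PHx24 against sham (median log2 fold change -0.54), and 2 were higher and 8 lower in PHx48 against sham (median -0.69). Of all genes, 19.1% were higher and 15.8% lower in PHx24 against sham, and 19.5% and 17% in PHx48 against sham. The bilirubin-conjugating Ugt1a1 (chr1:88211959-88218997) had 9.53 to 19.2 FPKM (median 14.5 FPKM) in PHx48 and 16.8 to 21.2 FPKM (median 18.3 FPKM) in PHx24, against 21.01, 30.6, 22.6, 23.2 and 27.1 FPKM in sham. All PHx48 libraries lay below all sham libraries, and PHx24 overlapped sham by 1 library. Its log2 fold change was -0.78 ± 0.13 in PHx48 against sham (adjusted p = 3.34e-05), -0.39 ± 0.13 in PHx24 against sham (adjusted p = 0.0189) and -0.39 ± 0.12 in PHx48 against PHx24 (adjusted p = 0.033). The call in PHx24 against sham was lost without sham 2 (adjusted p = 0.0855). The call between the times was lost without each of PHx24 1, PHx24 5, PHx48 1, PHx48 3 and PHx48 4 (adjusted p up to 0.0735). Ugt1a9 (chr1:88070800-88218997), whose human counterpart conjugates phenolic drugs, had 16.0 to 38.7 FPKM (median 20.7 FPKM) in PHx48 and 9.89 to 22.4 FPKM (median 12.95 FPKM) in PHx24, against 5.88, 9.10, 9.76, 20.1 and 14.7 FPKM in sham. PHx48 was higher than sham by 0.97 ± 0.31 (log2, adjusted p = 0.0165), with 4 of 7 libraries above every sham library, and the call was lost without sham 1 (adjusted p = 0.0572). In PHx24 against sham the difference of 0.31 ± 0.31 did not pass (adjusted p = 0.472).

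Ugt2b5 (chr5:87124960-87140318) had the highest level of the class, with 201 to 372 FPKM (median 349 FPKM) in PHx48 and 286 to 534 FPKM (median 499 FPKM) in PHx24, against 443, 461, 496, 764 and 658 FPKM in sham. All PHx48 libraries lay below all sham libraries (log2 fold change -0.77 ± 0.19, adjusted p = 0.00265), and PHx24 did not pass against sham (-0.29 ± 0.19, adjusted p = 0.27). Ugt2b1 (chr5:86916638-86926530), which in rat conjugates steroids and opioids, had 75.0 to 188 FPKM (median 155 FPKM) in PHx48 and 51.3 to 213 FPKM (median 155 FPKM) in PHx24, against 352, 349.6, 402, 524 and 496 FPKM in sham. Neither PHx48 nor PHx24 overlapped sham, with log2 fold changes of -1.57 ± 0.29 in PHx48 (adjusted p = 0.000145) and -1.62 ± 0.29 in PHx24 (adjusted p = 0.000115). Ugt2b38 (chr5:87409942-87424203) fell furthest of the class in PHx48, with 4.94 to 8.503 FPKM (median 6.86 FPKM) in PHx48 and 6.06 to 16.5 FPKM (median 11.5 FPKM) in PHx24, against 15.8, 30.8, 40.9, 41.6 and 39.6 FPKM in sham. PHx48 did not overlap sham (log2 fold change -2.29 ± 0.29, adjusted p = 9.61e-07), and 6 of 7 PHx24 libraries lay below the lowest sham library (-1.51 ± 0.28, adjusted p = 0.000167). Ugt2b36 averaged 224 ± 31.6 FPKM in PHx48 and 206 ± 38.1 FPKM in PHx24, against 348 ± 82.3 FPKM in sham, and both differences passed (log2 fold changes -0.61 ± 0.20, adjusted p = 0.0203, and -0.73 ± 0.20, adjusted p = 0.00672). Without sham 4 its call at 48 h was lost (adjusted p = 0.0624). Ugt2a3, whose human counterpart conjugates bile acids, averaged 75.1 ± 13.8 FPKM in PHx48 and 78.9 ± 16.6 FPKM in PHx24, against 145 ± 38.6 FPKM in sham, with no overlap of either group with sham (-0.92 ± 0.18, adjusted p = 0.000182, and -0.85 ± 0.18, adjusted p = 0.000505).

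Ugt2b34 and Ugt2b35 were higher at 24 h. Ugt2b34 (chr5:86889767-86906937) had 91.1 to 158 FPKM (median 126 FPKM) in PHx48 and 94.4 to 198 FPKM (median 169 FPKM) in PHx24, against 85.2, 99.1, 95.6, 129 and 109.9 FPKM in sham. In PHx24, 6 of 7 libraries lay above every sham library and PHx24 2 was the lowest (log2 fold change 0.69 ± 0.25, adjusted p = 0.0315). The call was lost without each of sham 1, sham 2, sham 3, sham 5, PHx24 4 and PHx24 6 (adjusted p up to 0.0817), and PHx48 did not pass against sham (0.33 ± 0.24, adjusted p = 0.313). Ugt2b35 averaged 93.7 ± 24.8 FPKM in PHx48 and 109 ± 23.9 FPKM in PHx24, against 68.7 ± 14.5 FPKM in sham. Its log2 fold change was 0.68 ± 0.18 in PHx24 against sham (adjusted p = 0.004). In PHx48 against sham it was 0.47 ± 0.18 (adjusted p = 0.0412), a call lost without any of 11 single libraries (adjusted p up to 0.121): sham 1, 2, 3 and 5, PHx48 2, 4, 5, 6 and 7, PHx24_ETO 3 and PHx48_ETO 1. Ugt2b37, at 3.27 ± 1.09 FPKM in PHx48, 2.48 ± 0.911 FPKM in PHx24 and 3.54 ± 1.36 FPKM in sham, did not pass at either time.

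Both Ugt3a genes, on chromosome 15, were lower at both times. Human enzymes of this family use sugars other than glucuronic acid. Ugt3a2 (chr15:9335550-9370955) had 28.0 to 61.8 FPKM (median 52.3 FPKM) in PHx48 and 31.4 to 71.5 FPKM (median 47.6 FPKM) in PHx24, against 72.6, 89.8, 94.3, 136 and 149 FPKM in sham. Neither PHx48 nor PHx24 overlapped sham, with log2 fold changes of -1.15 ± 0.22 in PHx48 (adjusted p = 0.000193) and -1.09 ± 0.22 in PHx24 (adjusted p = 0.000414). Ugt3a1 averaged 8.55 ± 3.66 FPKM in PHx48 and 8.74 ± 2.70 FPKM in PHx24, against 19.8 ± 6.32 FPKM in sham (log2 fold changes -1.20 ± 0.26, adjusted p = 0.000689, and -1.16 ± 0.26, adjusted p = 0.00106). Ugt1a5, Ugt1a6a, Ugt1a6b and Ugt1a7c, with means of 0.367 to 11.2 FPKM in PHx48, PHx24 and sham, did not pass in either comparison. Between the times, Ugt1a1 was the 1 UGT called of 16, where 11.6% of all genes were called. The UGT median in PHx48 against PHx24 was -0.07 and turned to 0.04 with scaling to the library total.

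**Figure D3:**
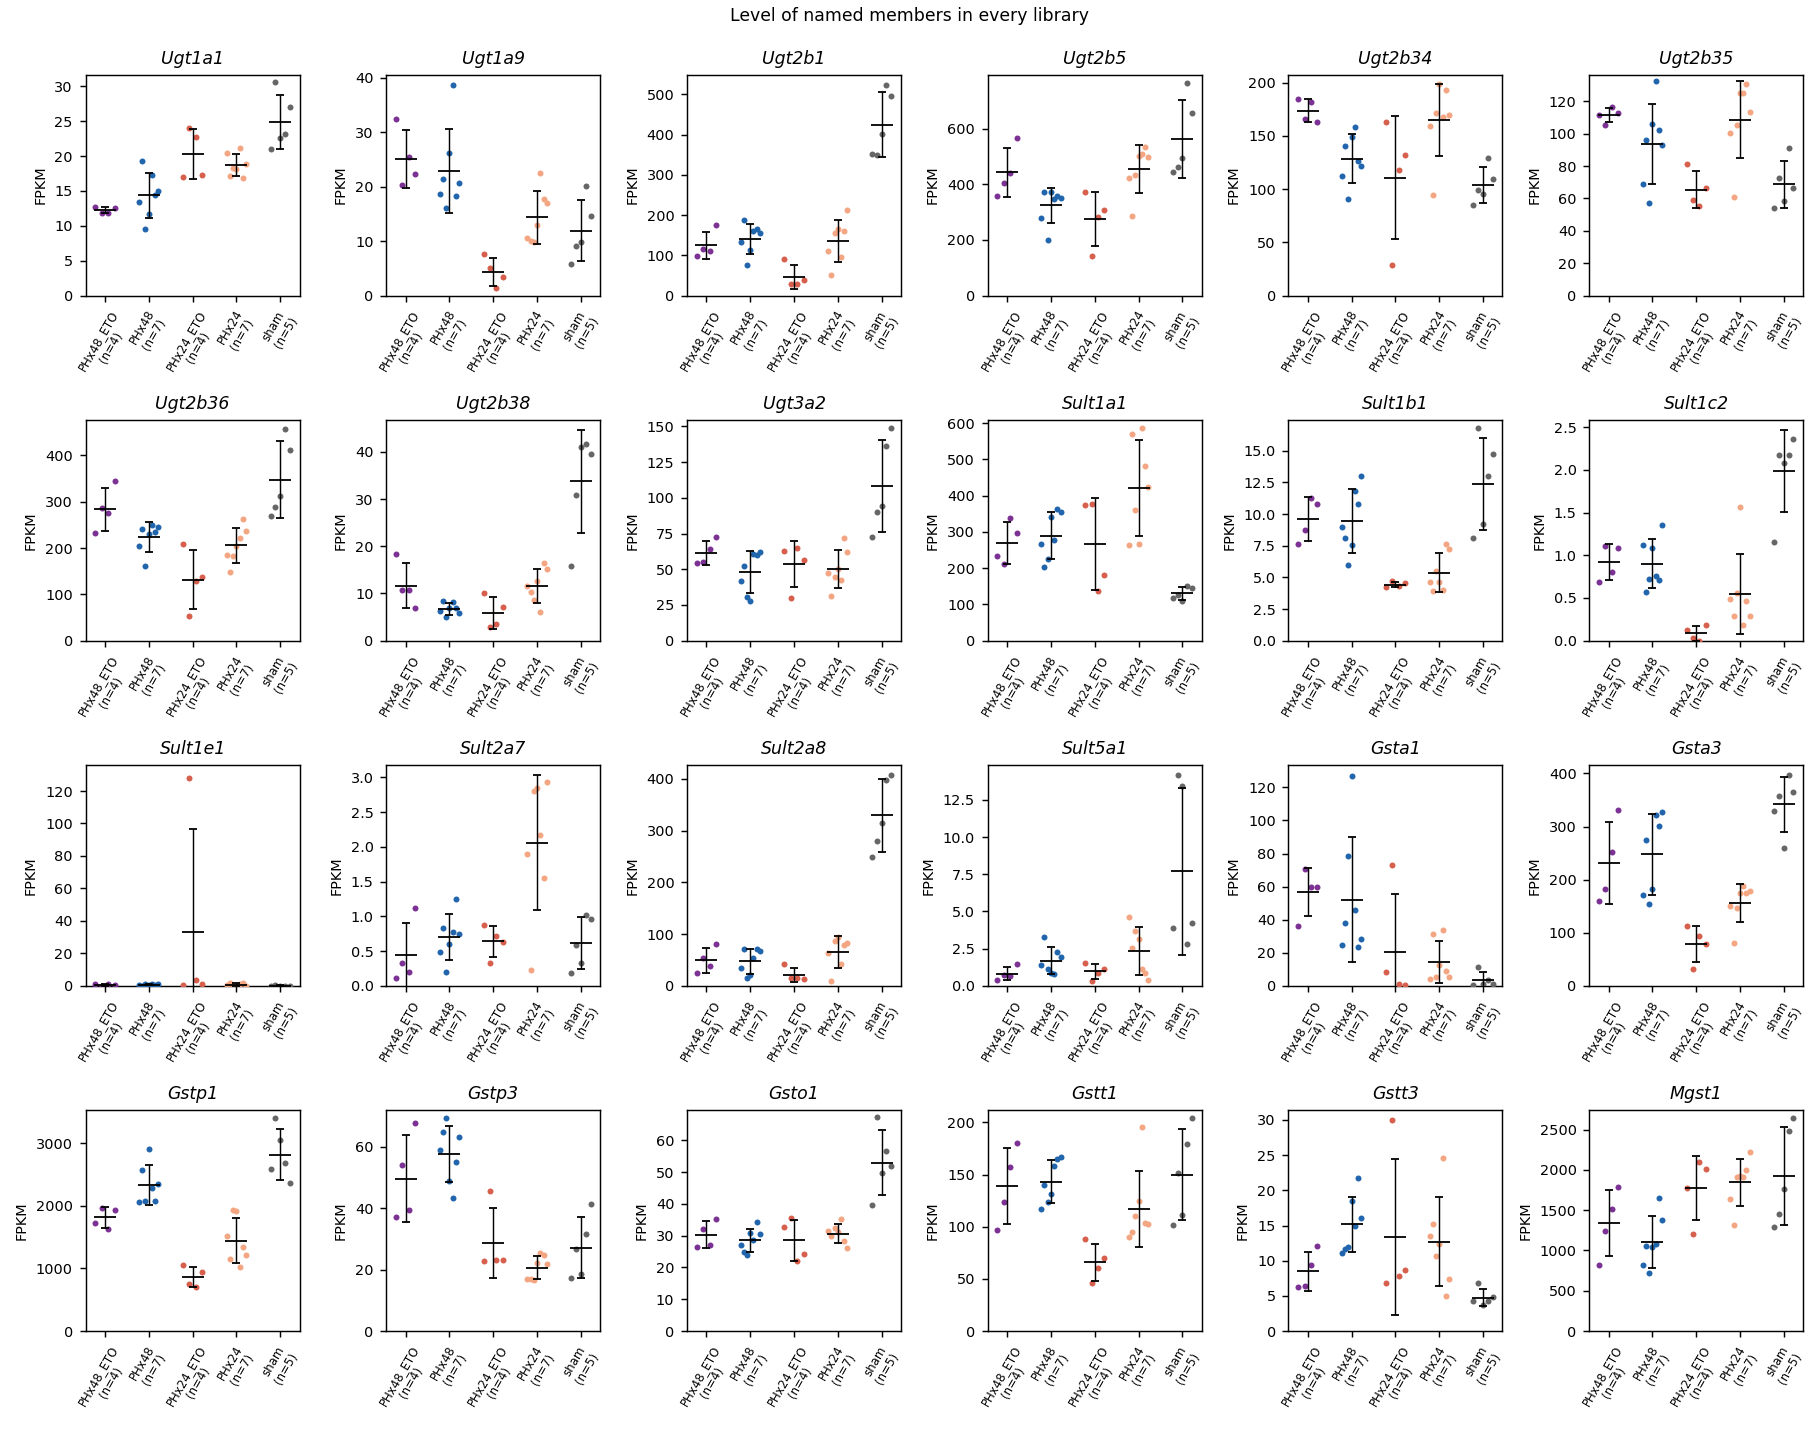
FPKM per library (y axes, linear, each from 0) of 24 members in the 5 groups (x axes), with 1 point per library and bars for the mean ± SD. Ugt2b1 and Sult2a8 lay lower in every library of the 4 resected groups than in every sham library, and the mean of Sult1e1 in PHx24_ETO rests on 1 library at 128 FPKM.

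With etomoxir at 24 h, 4 of 16 UGT were lower and none higher, and the 8 tested Ugt2 genes all had negative log2 fold changes (median -0.74), 3 of them called. Of all genes, 1.33% were lower and 1.58% higher. A fit of these 2 groups alone called 0 UGT. Ugt1a9 had 7.56, 4.99, 1.48 and 3.43 FPKM in PHx24_ETO, against 9.89 to 22.4 FPKM (median 12.95 FPKM) in PHx24. The groups did not overlap (log2 fold change -1.73 ± 0.36, adjusted p = 0.0106), and the call was kept whichever single library was left out. Ugt2b1 had 90.9, 28.1, 27.6 and 38.1 FPKM in PHx24_ETO, against 51.3 to 213 FPKM (median 155 FPKM) in PHx24. 3 of 4 PHx24_ETO libraries lay below every PHx24 library and PHx24_ETO 1 lay among them (log2 fold change -1.57 ± 0.34, adjusted p = 0.0139). The call was lost without PHx24_ETO 2 or PHx24_ETO 3 (adjusted p up to 0.0565). Ugt2a3 averaged 46.4 ± 15.3 FPKM in PHx24_ETO and 78.9 ± 16.6 FPKM in PHx24 (-0.78 ± 0.20, adjusted p = 0.03), and Ugt2b35 65.4 ± 11.4 FPKM in PHx24_ETO and 109 ± 23.9 FPKM in PHx24 (-0.75 ± 0.19, adjusted p = 0.0325). Both calls were lost without PHx24_ETO 2, 3 or 4 or without PHx24 3, 4, 6 or 7, and that of Ugt2b35 also without PHx24 5 (adjusted p up to 0.124 for Ugt2a3 and 0.11 for Ugt2b35). Ugt2b5 had 374, 143, 282 and 307 FPKM in PHx24_ETO, against 286 to 534 FPKM (median 499 FPKM) in PHx24 (-0.74 ± 0.22, adjusted p = 0.0604). Ugt1a1, with 17.1, 24.0, 22.8 and 17.3 FPKM in PHx24_ETO, against 16.8 to 21.2 FPKM (median 18.3 FPKM) in PHx24, did not pass (0.10 ± 0.14, 95% interval -0.17 to 0.37, adjusted p = 0.734).

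With etomoxir at 48 h no UGT was called. Ugt2b34 had 184, 165, 181 and 163 FPKM in PHx48_ETO, against 91.1 to 158 FPKM (median 126 FPKM) in PHx48, and all 4 PHx48_ETO libraries lay above all PHx48 libraries (0.43 ± 0.26, adjusted p = 0.712). Ugt2b38 had 18.4, 10.8, 10.7 and 6.90 FPKM in PHx48_ETO, against 4.94 to 8.503 FPKM (median 6.86 FPKM) in PHx48 (0.79 ± 0.30, adjusted p = 0.474), with 3 of 4 libraries above the PHx48 range. Ugt1a9 had 32.5, 20.2, 25.4 and 22.3 FPKM in PHx48_ETO, against 16.0 to 38.7 FPKM (median 20.7 FPKM) in PHx48, and the groups overlapped (0.14 ± 0.32, adjusted p = 0.945). The etomoxir effect at 48 h minus that at 24 h was tested in the same fit. edgeR called 0 of 39 members for this difference, where 0.0162% of all genes were called, 19 members had an unadjusted p under 0.05 (8.6% of all genes), DESeq2 called 4 higher (0.339% of all genes called) and limma called 0. The 8 tested Ugt2 genes each had a positive difference with an unadjusted p under 0.05 (median log2 difference 1.10, beside -0.01 for all genes), the largest in Ugt2b38 (1.78 ± 0.44, adjusted p = 0.215). Ugt1a9 differed by 1.87 ± 0.47 (adjusted p = 0.215). Without PHx24_ETO 1, 7 members passed as higher and 1 as lower. These genes lie next to each other, and the UGT sum in PHx24_ETO ran from 428 FPKM in PHx24_ETO 2 to 1114 FPKM in PHx24_ETO 1.

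**Figure D4:**
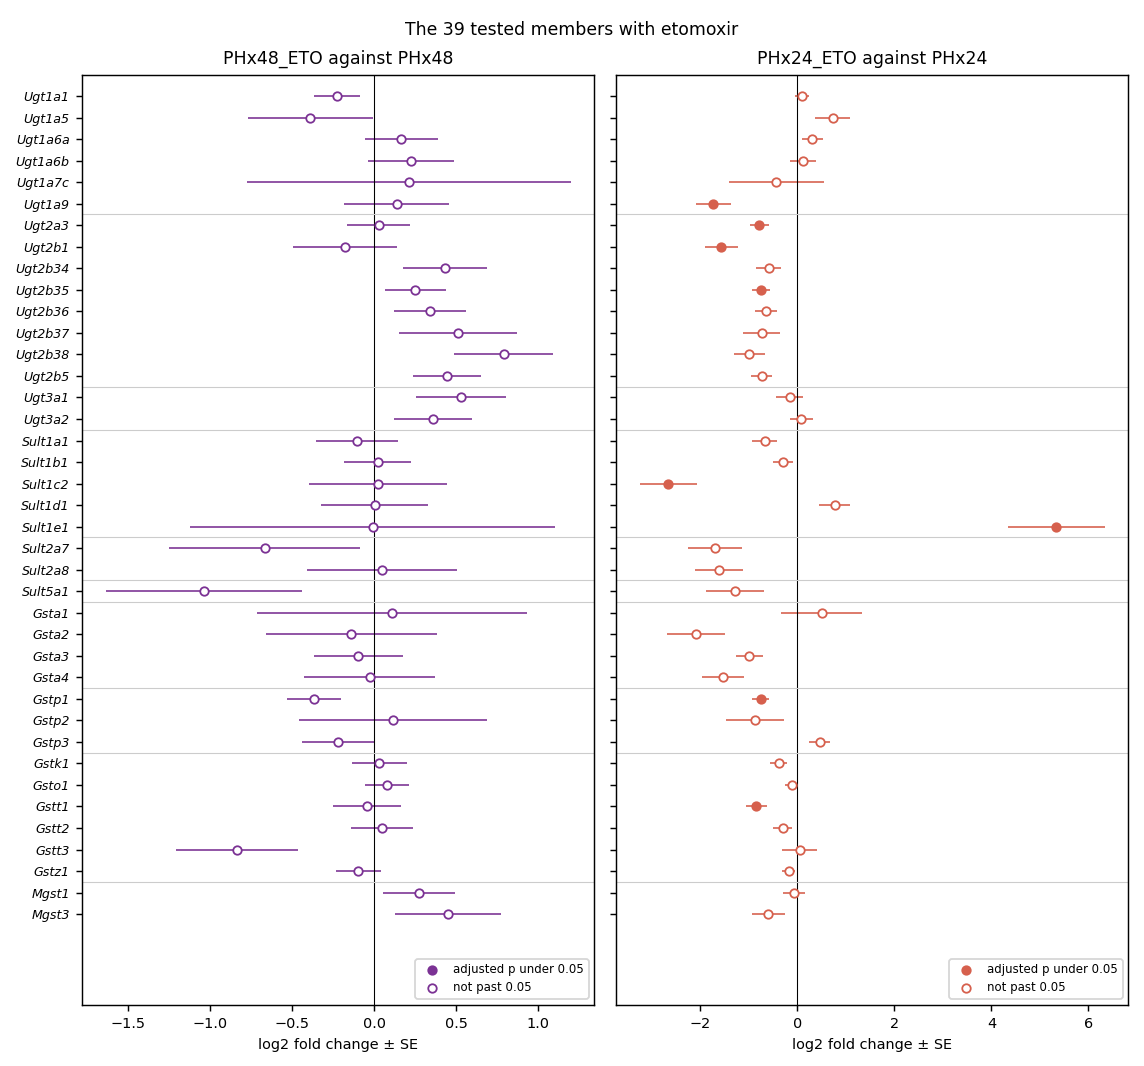
Log2 fold change ± SE (x axes, which differ in range) of the 39 tested members in PHx48_ETO against PHx48 (left) and PHx24_ETO against PHx24 (right), by family. Filled points passed an adjusted p of 0.05: none at 48 h, and at 24 h Ugt1a9, Ugt2a3, Ugt2b1, Ugt2b35, Sult1c2, Gstp1 and Gstt1 below 0 and Sult1e1 above 0.

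The sulfotransferases split. Of 8 tested SULT, 2 were higher and 4 lower in PHx24 against sham (median log2 fold change -0.72), and 1 was higher and 3 were lower in PHx48 against sham (median -0.14, which turned to 0.09 with scaling to the library total). Among all genes, 19.1% were higher and 15.8% lower in PHx24 against sham, and 19.5% and 17% in PHx48 against sham. Sult1a1 (chr7:126672865-126676432), which sulfates phenols, had the highest level of the class after resection, with 202 to 363 FPKM (median 277 FPKM) in PHx48 and 264 to 585 FPKM (median 425 FPKM) in PHx24, against 119, 126, 109, 152 and 146 FPKM in sham. Every PHx48 and PHx24 library lay above every sham library (log2 fold change 1.17 ± 0.24 in PHx48, adjusted p = 0.000425, and 1.71 ± 0.25 in PHx24, adjusted p = 8.39e-06). Sult2a8 (chr7:14410686-14446769), a bile acid sulfotransferase of mouse liver under control of PPARA, had 14.8 to 70.9 FPKM (median 54.1 FPKM) in PHx48 and 9.66 to 95.0 FPKM (median 79.4 FPKM) in PHx24, against 249.7, 279.6, 314, 398 and 407 FPKM in sham. No PHx48 or PHx24 library reached the sham range, and PHx24 2 was the lowest of its group. The log2 fold change was -2.78 ± 0.44 in PHx48 against sham (adjusted p = 1.86e-05) and -2.30 ± 0.43 in PHx24 against sham (adjusted p = 0.000169), and the mean of Sult2a8 was above that of Sult1a1 in sham and below it in PHx48 and PHx24. Its neighbour Sult2a7 (chr7:14465051-14494230) stood far lower, with 0.193 to 1.26 FPKM (median 0.742 FPKM) in PHx48 and 0.231 to 2.93 FPKM (median 2.18 FPKM) in PHx24, against 0.185, 0.594, 0.323, 1.03 and 0.955 FPKM in sham. In PHx24, 6 of 7 libraries lay above every sham library and PHx24 2 below most (1.79 ± 0.53, adjusted p = 0.0099). PHx48 lay within the PHx24 range or below it (-1.57 ± 0.45 in PHx48 against PHx24, adjusted p = 0.0237). Sult2a7 reached 1 FPKM in 9 libraries, mostly of PHx24, and without that group it would not have been tested. Its calls, which are among those counted for the SULT, are thus not independent of the filter.

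Sult1b1 (chr5:87513339-87538195), which sulfates thyroid hormone, was lower at 24 h and higher again at 48 h, with 5.95 to 13.03 FPKM (median 8.95 FPKM) in PHx48 and 3.92 to 7.65 FPKM (median 4.66 FPKM) in PHx24, against 8.14, 16.8, 9.22, 13.01 and 14.7 FPKM in sham. PHx24 did not overlap sham (-1.18 ± 0.19, adjusted p = 3.68e-05). PHx48 had 5 of 7 libraries above every PHx24 library (0.81 ± 0.18 in PHx48 against PHx24, adjusted p = 0.00343) and did not pass against sham (-0.37 ± 0.19, adjusted p = 0.132). Sult5a1 (chr8:123140192-123158315) had 0.770 to 3.31 FPKM (median 1.42 FPKM) in PHx48 and 0.376 to 4.65 FPKM (median 2.54 FPKM) in PHx24, against 3.86, 14.2, 13.4, 2.83 and 4.21 FPKM in sham, with sham 2 and sham 3 far above the other sham libraries. It was lower in PHx48 (-2.19 ± 0.52, adjusted p = 0.00168) and in PHx24 (-1.70 ± 0.51, adjusted p = 0.0117), the second lost without sham 2 (adjusted p = 0.0548). Sult1c2 (chr17:53829637-53846339) had 0.575 to 1.35 FPKM (median 0.763 FPKM) in PHx48 and 0.184 to 1.56 FPKM (median 0.464 FPKM) in PHx24, against 1.15, 2.17, 2.08, 2.17 and 2.35 FPKM in sham, and 1 library each of PHx48 and PHx24 reached above sham 1, the lowest sham library (-1.11 ± 0.38, adjusted p = 0.0244, and -1.82 ± 0.39, adjusted p = 0.000762). Sult1d1, which sulfates catecholamines in mouse, averaged 39.1 ± 8.89 FPKM in PHx48 and 30.6 ± 6.83 FPKM in PHx24, against 37.4 ± 15.6 FPKM in sham, and did not pass at either time.

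With etomoxir at 24 h, 1 SULT was called higher and 1 lower of 8 tested (1.58% and 1.33% of all genes), and 0 in a fit of these 2 groups alone. Sult1e1 (chr5:87575969-87591594), the oestrogen sulfotransferase, had 0.806, 128, 3.39 and 1.199 FPKM in PHx24_ETO, against 0.0478 to 1.95 FPKM (median 0.488 FPKM) in PHx24. PHx24_ETO 2 stood apart by far, PHx24_ETO 3 was just above the PHx24 range, and the 2 other libraries lay within it. The log2 fold change of 5.34 ± 1.0 (adjusted p = 0.00635) rested on PHx24_ETO 2, without which it was 1.13 (adjusted p = 0.546). Sult1d1, the next gene on the chromosome, stood at 128 FPKM in the same library and at 26.9 to 28.8 FPKM in the 3 others, and did not pass (0.77 ± 0.32, adjusted p = 0.183). Sult1c2 had 0.128, 0.0331, 0 and 0.183 FPKM in PHx24_ETO, against 0.184 to 1.56 FPKM (median 0.464 FPKM) in PHx24. All 4 PHx24_ETO libraries lay below all PHx24 libraries (-2.66 ± 0.59, adjusted p = 0.0159), and the call was lost without PHx24_ETO 2 or 3 (adjusted p up to 0.0616). These values lie near the floor, with 4, 1, 0 and 5 counts in PHx24_ETO against 6 to 50 in PHx24. Sult2a8 had 41.8, 15.8, 14.8 and 14.2 FPKM in PHx24_ETO, against 9.66 to 95.0 FPKM (median 79.4 FPKM) in PHx24 (-1.61 ± 0.49, adjusted p = 0.0702), with PHx24 2 below all 4 PHx24_ETO libraries. Sult1a1 had 374, 376, 137 and 179.9 FPKM in PHx24_ETO, against 264 to 585 FPKM (median 425 FPKM) in PHx24, and PHx24_ETO 1 and 2 lay within the PHx24 range (-0.67 ± 0.26, adjusted p = 0.139). At 48 h, Sult2a8 had 24.3, 53.3, 37.8 and 80.8 FPKM in PHx48_ETO, against 14.8 to 70.9 FPKM (median 54.1 FPKM) in PHx48, and the log2 difference was 0.05 ± 0.46 (95% interval -0.85 to 0.94, adjusted p = 0.99).

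**Figure D5:**
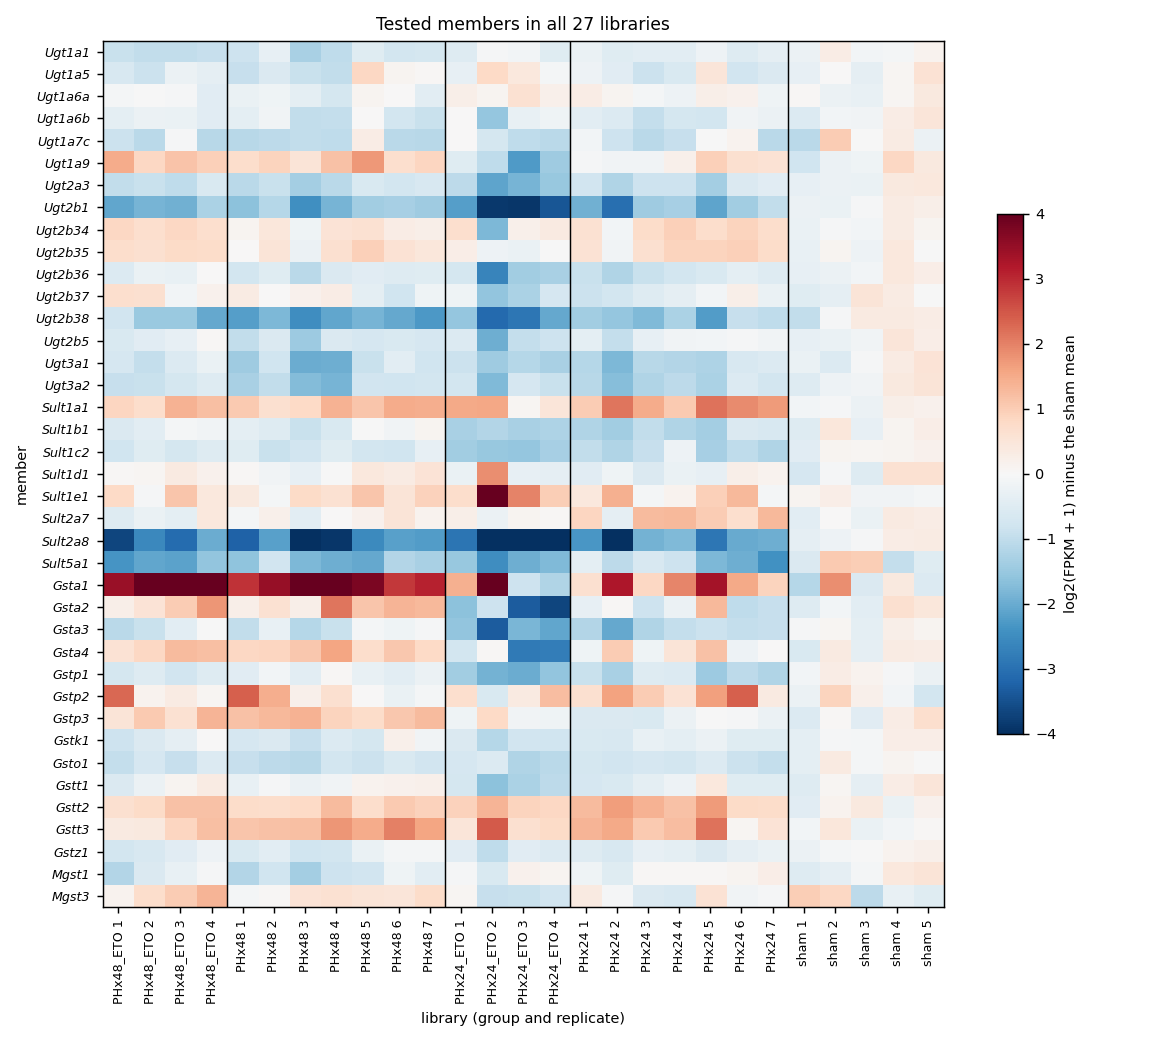
Log2(FPKM + 1) of each tested member (rows, by family) in each of the 27 libraries (columns, by group) minus its sham mean, with colours limited at 4 in either direction. Values ran from -4.93 to 6.86, and PHx24_ETO 2 and PHx24 2 differ from the other libraries of their groups in several rows, such as Sult1e1 in PHx24_ETO 2 and Sult2a8 in PHx24 2.

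Among the glutathione transferases, the 2 most abundant were each lower at 1 time, Gstp1 at 24 h and Mgst1 at 48 h, and 5 others were higher at 48 h. Of 15 tested GST, 2 were higher and 5 lower in PHx24 against sham (median log2 fold change -0.23), and 5 were higher and 4 lower in PHx48 against sham (median 0.23). The shares of all genes were 19.1% higher and 15.8% lower in PHx24 against sham, and 19.5% and 17% in PHx48 against sham. Gstp1 (chr19:4035407-4037921), the pi-class enzyme, had the highest mean FPKM of all 60 members over the 27 libraries. It had 2052 to 2906 FPKM (median 2279 FPKM) in PHx48 and 1019 to 1936 FPKM (median 1348 FPKM) in PHx24, against 2590.5, 3394, 3050.3, 2680.0 and 2358 FPKM in sham. PHx24 did not overlap sham (-0.95 ± 0.15, adjusted p = 3.11e-05) and lay below every PHx48 library (0.69 ± 0.14 in PHx48 against PHx24, adjusted p = 0.00168), while PHx48 did not pass against sham (-0.26 ± 0.15, adjusted p = 0.195). Gstp3 (chr19:4057477-4059446), in the same cluster on chromosome 19, had 43.5 to 69.4 FPKM (median 58.8 FPKM) in PHx48 and 16.5 to 25.5 FPKM (median 21.9 FPKM) in PHx24, against 17.3, 26.7, 18.7, 31.8 and 41.3 FPKM in sham. All PHx48 libraries lay above all sham and all PHx24 libraries (1.12 ± 0.21 against sham, adjusted p = 0.00018, and 1.48 ± 0.19 against PHx24, adjusted p = 1.05e-05), and PHx24 against sham did not pass (-0.36 ± 0.21, adjusted p = 0.179). Gstp2, at 9.94 ± 9.16 FPKM in PHx48, 13.3 ± 7.96 FPKM in PHx24 and 5.09 ± 2.71 FPKM in sham, did not pass at either time. Mgst1 (chr6:138140316-138156755), the membrane-bound form, had 726 to 1655 FPKM (median 1058 FPKM) in PHx48 and 1313 to 2229 FPKM (median 1914 FPKM) in PHx24, against 1298, 1452, 1763, 2480.2 and 2648 FPKM in sham. It was lower in PHx48 against sham (-0.78 ± 0.21, adjusted p = 0.00435) and against PHx24 (-0.74 ± 0.19, adjusted p = 0.0113), with 5 of 7 PHx48 libraries below each of the other ranges. PHx24 against sham differed by -0.03 ± 0.21 (95% interval -0.44 to 0.37).

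The alpha class moved apart. Gsta3 (chr1:21240589-21265661), which in mouse detoxifies the aflatoxin epoxide, had 154 to 327 FPKM (median 274 FPKM) in PHx48 and 81.2 to 188 FPKM (median 174 FPKM) in PHx24, against 329, 357, 259, 398 and 365 FPKM in sham. No PHx24 library reached the sham range (-1.11 ± 0.25, adjusted p = 0.00116), PHx24 2 was the lowest, and PHx48 overlapped sham (-0.45 ± 0.25, adjusted p = 0.161). Gsta1 (chr9:78230656-78242684) had 23.2 to 127 FPKM (median 37.7 FPKM) in PHx48 and 4.37 to 33.8 FPKM (median 8.89 FPKM) in PHx24, against 0.556, 11.6, 1.29, 3.55 and 1.36 FPKM in sham. All PHx48 libraries lay above all sham libraries (3.85 ± 0.95, adjusted p = 0.00237), and 3 of 7 PHx24 libraries did (1.99 ± 0.90, adjusted p = 0.0872). Since most of the Gsta1 sequence also occurs in another gene, its level and that of Gsta2 are uncertain. Gsta2 averaged 41.5 ± 21.6 FPKM in PHx48 and 17.4 ± 13.1 FPKM in PHx24, against 19.2 ± 7.34 FPKM in sham, and did not pass (1.13 ± 0.50, adjusted p = 0.0802, and -0.11 ± 0.49, adjusted p = 0.886). Gsta4, which clears the lipid peroxidation product 4-hydroxynonenal, averaged 88.9 ± 20.0 FPKM in PHx48 and 58.2 ± 25.7 FPKM in PHx24, against 45.2 ± 13.4 FPKM in sham. PHx48 did not overlap sham (1.0 ± 0.38, adjusted p = 0.0431), and the call was lost without any of 9 libraries: sham 1, 3, 4 and 5, PHx48 1, 3, 4 and 6 and PHx48_ETO 1 (adjusted p up to 0.108).

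Of the theta class on chromosome 10, Gstt2 and Gstt3 were higher at both times. Gstt3 (chr10:75774115-75781414) had 11.2 to 21.7 FPKM (median 15.0006 FPKM) in PHx48 and 5.02 to 24.6 FPKM (median 12.3 FPKM) in PHx24, against 4.23, 6.80, 3.68, 4.26 and 4.84 FPKM in sham. PHx48 did not overlap sham (1.68 ± 0.36, adjusted p = 0.000649), and 6 of 7 PHx24 libraries lay above every sham library (1.43 ± 0.36, adjusted p = 0.00284). Gstt2 averaged 19.8 ± 3.22 FPKM in PHx48 and 26.2 ± 7.14 FPKM in PHx24, against 10.45 ± 2.63 FPKM in sham, with no overlap of either group with sham (0.94 ± 0.18, adjusted p = 0.000214, and 1.35 ± 0.18, adjusted p = 4.57e-06). Gstt1 (chr10:75783813-75798584), which conjugates small halogenated compounds, had the highest level of the class, with 117 to 167 FPKM (median 139.9 FPKM) in PHx48 and 90.6 to 196 FPKM (median 103 FPKM) in PHx24, against 102, 151, 112, 179.8 and 204 FPKM in sham. It did not pass at either time (-0.04 ± 0.19, 95% interval -0.42 to 0.34, and -0.33 ± 0.19, 95% interval -0.70 to 0.05). Gsto1 (chr19:47854970-47864790), the omega-class enzyme that reduces dehydroascorbate, had 23.9 to 34.3 FPKM (median 28.5 FPKM) in PHx48 and 26.2 to 35.2 FPKM (median 31.0 FPKM) in PHx24, against 39.6, 67.3, 49.6, 56.5 and 52.0 FPKM in sham. Every PHx48 and PHx24 library lay below every sham library (-0.88 ± 0.12, adjusted p = 4.48e-06, and -0.77 ± 0.12, adjusted p = 3.1e-05). Gstk1, of mitochondria and peroxisomes, averaged 61.9 ± 18.2 FPKM in PHx48 and 61.7 ± 6.69 FPKM in PHx24, against 85.4 ± 15.7 FPKM in sham, and passed at both times (-0.45 ± 0.16, adjusted p = 0.0282, and -0.44 ± 0.16, adjusted p = 0.0304). Its call was lost at 48 h without sham 4, sham 5, PHx48 1 or PHx48 5 (adjusted p up to 0.0668) and at 24 h without sham 4, sham 5, PHx24 1 or PHx24 2 (adjusted p up to 0.0685). Gstz1, the maleylacetoacetate isomerase of tyrosine breakdown, averaged 103 ± 21.4 FPKM in PHx48 and 99.9 ± 9.76 FPKM in PHx24, against 137 ± 16.2 FPKM in sham (-0.39 ± 0.13, adjusted p = 0.0171, and -0.43 ± 0.13, adjusted p = 0.00961). Mgst3 did not pass at either time, and its sham libraries spread from 8.83 to 38.7 FPKM.

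With etomoxir at 24 h, 2 of 15 GST were lower and none higher (1.33% and 1.58% of all genes), and 0 were called in a fit of these 2 groups alone. Gstt1 had 88.3, 45.6, 60.1 and 69.8 FPKM in PHx24_ETO, against 90.6 to 196 FPKM (median 103 FPKM) in PHx24, and the groups did not overlap (-0.85 ± 0.22, adjusted p = 0.0305). The call was lost without PHx24_ETO 2, 3 or 4 or without PHx24 3, 4 or 5 (adjusted p up to 0.126). Gstp1 had 1058, 753, 705 and 939 FPKM in PHx24_ETO, against 1019 to 1936 FPKM (median 1348 FPKM) in PHx24, with 3 of 4 libraries below the PHx24 range (-0.76 ± 0.17, adjusted p = 0.0166), a call lost without PHx24_ETO 2 or 3 (adjusted p up to 0.0672). 3 more members lay just outside the threshold. Gsta3 had 112, 32.5, 94.1 and 79.4 FPKM in PHx24_ETO, against 81.2 to 188 FPKM (median 174 FPKM) in PHx24 (-0.99 ± 0.28, adjusted p = 0.052). Gsta4 averaged 20.4 ± 19.0 FPKM in PHx24_ETO and 58.2 ± 25.7 FPKM in PHx24 (-1.53 ± 0.43, adjusted p = 0.0506), and Gsta2 4.11 ± 4.34 FPKM in PHx24_ETO and 17.4 ± 13.1 FPKM in PHx24 (-2.09 ± 0.60, adjusted p = 0.0532). In PHx24_ETO 2, Gstt3 stood at 30.0 FPKM and Gstp3 at 45.7 FPKM, against 6.88 to 8.72 FPKM and 22.9 to 23.2 FPKM in the other libraries of the group. At 48 h, Gstp1 had 1729, 1964, 1624 and 1936 FPKM in PHx48_ETO, against 2052 to 2906 FPKM (median 2279 FPKM) in PHx48, and the groups did not overlap (-0.37 ± 0.17, adjusted p = 0.593). Mgst1 had 819, 1247, 1517 and 1783 FPKM in PHx48_ETO, against 726 to 1655 FPKM (median 1058 FPKM) in PHx48, and the groups overlapped (0.28 ± 0.22, 95% interval -0.16 to 0.71, adjusted p = 0.814).

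Genes that supply the co-substrates had medians near 0 after resection, while the share of genes called differed between the lists. Of all genes tested, 35% were called in PHx24 against sham, 19.1% higher and 15.8% lower. In PHx48 against sham 36.5% were called, 19.5% higher and 17% lower. No list was tested as a set. Of 8 tested genes for UDP-glucuronic acid supply, 3 were higher and 2 lower in PHx24 against sham (median 0.02) and likewise in PHx48 against sham (median 0.07). Entpd5, a nucleoside diphosphatase of the endoplasmic reticulum, averaged 66.5 ± 15.3 FPKM in PHx48 and 34.2 ± 5.60 FPKM in sham (log2 fold change 0.98 ± 0.14, adjusted p = 7.39e-06), and 68.9 ± 13.6 FPKM in PHx24 and 34.2 ± 5.60 FPKM in sham (log2 fold change 1.03 ± 0.14, adjusted p = 5.46e-06). Of 9 tested genes for PAPS and sulfate supply, 0 were higher and 1 lower in PHx24 (median -0.01), and 1 was higher and 0 lower in PHx48 (median 0.06). The lower gene was Slc35b2, a PAPS transporter (-0.20 ± 0.07, adjusted p = 0.0368), whose call was lost without sham 2 or 3 or PHx24 1, 2 or 5 (adjusted p up to 0.125). The higher gene was Impad1, a phosphatase of the spent donor (0.38 ± 0.15, adjusted p = 0.0434), whose call was lost without any of 10 single libraries (adjusted p up to 0.125). Of 15 tested genes for glutathione synthesis and recycling, 4 were higher and 2 lower in PHx24 (median 0.11), and 4 were higher and 3 lower in PHx48 (median -0.08). Chac1, which degrades glutathione, averaged 0.394 ± 0.266 FPKM in PHx48 and 3.13 ± 2.68 FPKM in sham (log2 fold change -2.95 ± 0.63, adjusted p = 0.000631). Of 14 other conjugating enzymes, 2 were higher and 7 lower in PHx24 (median -0.58) and 3 higher and 7 lower in PHx48 (median -0.53). Inmt, an indole N-methyltransferase, averaged 118 ± 74.3 FPKM in PHx24 and 523 ± 209 FPKM in sham (log2 fold change -2.12 ± 0.58, adjusted p = 0.00567). Nat8f1 averaged 50.8 ± 17.9 FPKM in PHx48 and 196 ± 52.5 FPKM in sham (log2 fold change -1.93 ± 0.26, adjusted p = 2.25e-06). The histamine methyltransferase Hnmt averaged 28.5 ± 4.81 FPKM in PHx48 and 7.62 ± 2.80 FPKM in PHx24 (log2 fold change 1.90 ± 0.23, adjusted p = 5.51e-06).

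Of 9 tested deconjugating enzymes, 1 was higher and 5 lower in PHx24 against sham (median -0.52), and 3 were higher and 4 lower in PHx48 (median -0.52). The shares called among all genes were 35% in PHx24 against sham and 36.5% in PHx48 against sham. The carboxylesterase Ces3a averaged 353 ± 116 FPKM in PHx48 and 1154 ± 182 FPKM in sham (log2 fold change -1.69 ± 0.23, adjusted p = 2.84e-06), and 405 ± 122 FPKM in PHx24 and 1154 ± 182 FPKM in sham (log2 fold change -1.49 ± 0.23, adjusted p = 1.96e-05). Of 13 tested genes for the export or uptake of conjugates, 2 were higher and 2 lower in PHx24 (median 0.05), and 1 was higher and 4 lower in PHx48 (median -0.32). The exporter Abcb1a averaged 1.57 ± 1.29 FPKM in PHx24 and 0.394 ± 0.314 FPKM in sham (log2 fold change 1.98 ± 0.71, adjusted p = 0.0327). Its call was lost without any of 5 single libraries (adjusted p up to 0.0913). The uptake carrier Slco1a1 averaged 28.6 ± 10.3 FPKM in PHx48 and 118 ± 26.2 FPKM in sham (log2 fold change -2.02 ± 0.32, adjusted p = 2.28e-05). In PHx24_ETO against PHx24, 2.9% of all genes were called. Of 8 tested genes for UDP-glucuronic acid supply, 0 were called (median -0.02). Of 9 for PAPS and sulfate supply, 0 were higher and 1 lower (-0.10). Of 15 for glutathione synthesis and recycling, 1 was higher and 1 lower (-0.08). Of 14 other conjugating enzymes, 0 were higher and 1 lower (-0.20). Deconjugating enzymes had 0 higher and 3 lower of 9, and export or uptake genes 0 and 2 of 13 (medians -0.24 and -0.18). With etomoxir at 24 h, the PAPS synthase Papss2 averaged 17.2 ± 5.34 FPKM in PHx24_ETO and 36.3 ± 5.72 FPKM in PHx24 (log2 fold change -1.09 ± 0.24, adjusted p = 0.0155). Cth, which makes cysteine from cystathionine, averaged 106 ± 41.7 FPKM in PHx24_ETO and 223 ± 35.3 FPKM in PHx24 (log2 fold change -1.08 ± 0.27, adjusted p = 0.0302). Ces1d averaged 41.1 ± 20.1 FPKM in PHx24_ETO and 128 ± 40.4 FPKM in PHx24 (log2 fold change -1.65 ± 0.34, adjusted p = 0.011) and the carrier Slco1a4 6.68 ± 3.23 FPKM in PHx24_ETO and 14.95 ± 4.77 FPKM in PHx24 (log2 fold change -1.18 ± 0.27, adjusted p = 0.0183). The glycine methyltransferase Gnmt was lower with etomoxir at 24 h (-0.70 ± 0.18, adjusted p = 0.0345) and at 48 h (-0.86 ± 0.18, adjusted p = 0.039), and Gclm, a subunit of the enzyme that limits glutathione synthesis, was higher at 48 h (0.46 ± 0.10, adjusted p = 0.0409). Of these calls, those of Papss2 and Slco1a4 were lost without PHx24_ETO 3 or 4 (adjusted p up to 0.059 and 0.0692), and that of Cth without PHx24_ETO 3 or 4 or PHx24 3 or 4 (adjusted p up to 0.107). Gnmt lost its call at 24 h without PHx24_ETO 2, 3 or 4 or PHx24 1, 3 or 4 (adjusted p up to 0.124). Gnmt at 48 h and Gclm lost theirs without any of 12 and 19 single libraries (adjusted p up to 0.236 and 0.164).

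Receptors that control phase II genes were measured alongside. Of 21 tested receptors and regulators, 3 were higher and 4 lower in PHx24 against sham (median -0.02), and 2 were higher and 8 lower in PHx48 (median -0.21). Among all genes, 35% were called in PHx24 against sham and 36.5% in PHx48 against sham. The dioxin receptor Ahr averaged 11.9 ± 1.74 FPKM in PHx24 and 4.73 ± 1.09 FPKM in sham (log2 fold change 1.35 ± 0.25, adjusted p = 0.000155) and fell in PHx48 against PHx24 (-0.82 ± 0.22, adjusted p = 0.0147). The pregnane X receptor Nr1i2 averaged 53.4 ± 14.7 FPKM in PHx24 and 29.0 ± 7.76 FPKM in sham (log2 fold change 0.90 ± 0.20, adjusted p = 0.00112) and fell in PHx48 against PHx24 (-0.67 ± 0.18, adjusted p = 0.016). The constitutive androstane receptor Nr1i3 averaged 4.41 ± 0.830 FPKM in PHx48 and 7.47 ± 1.52 FPKM in sham (log2 fold change -0.75 ± 0.15, adjusted p = 0.000397) and was lower than in PHx24 too (-0.94 ± 0.14, adjusted p = 8.03e-05). Nfe2l2, which encodes the antioxidant regulator NRF2, averaged 27.2 ± 5.06 FPKM in PHx48 and 16.1 ± 3.68 FPKM in sham (log2 fold change 0.78 ± 0.15, adjusted p = 0.000197), and PHx24 also passed against sham (0.53 ± 0.15, adjusted p = 0.00692). Against sham, Ahr (0.53 ± 0.24, adjusted p = 0.0909) and Nr1i2 (0.23 ± 0.20, adjusted p = 0.381) did not pass in PHx48. Nr1i3 did not pass in PHx24 against sham (0.18 ± 0.15, adjusted p = 0.381). With etomoxir at 24 h, Nr1i3 was higher (0.58 ± 0.16, adjusted p = 0.0494), a call lost without any of 20 single libraries (adjusted p up to 0.207), and Ahr, Nr1i2 and Nfe2l2 did not pass. Bach1, a repressor of NRF2 targets, was higher too (0.76 ± 0.18, adjusted p = 0.0247), and not without PHx24_ETO 2 (adjusted p = 0.21). In PHx48_ETO against PHx48, Ahr, Nr1i2, Nr1i3 and Nfe2l2 did not pass, with the lowest adjusted p in Nr1i3 (0.36 ± 0.16, adjusted p = 0.598). Among other regulators, Cebpa was lower in PHx24 against sham (-1.46 ± 0.18, adjusted p = 1.85e-06) and Bcl6 in PHx48 against sham (-1.54 ± 0.49, adjusted p = 0.0162).

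Of 12 tested target genes of AHR, CAR, PXR and NRF2 outside the 60 members, 7 were higher and 0 lower in PHx24 against sham (median 0.76), and 3 were higher and 1 lower in PHx48 (median 0.15). Among all genes, 19.1% were higher in PHx24 against sham and 19.5% in PHx48 against sham, with 15.8% and 17% lower. Cyp2b10, a classical CAR target, averaged 10.6 ± 14.5 FPKM in PHx24 and 1.12 ± 1.77 FPKM in sham (log2 fold change 3.25 ± 0.84, adjusted p = 0.00365). Nqo1, a classical NRF2 target, averaged 16.6 ± 7.46 FPKM in PHx48 and 3.44 ± 1.11 FPKM in sham (log2 fold change 2.27 ± 0.39, adjusted p = 5.01e-05). Cyp1a1, a classical AHR target, averaged 0.486 ± 0.161 FPKM in PHx48 and 5.79 ± 4.00 FPKM in PHx24 (log2 fold change -3.57 ± 0.71, adjusted p = 0.00132). Cyp3a11, a classical PXR target, averaged 339 ± 149.8 FPKM in PHx24_ETO and 1106 ± 170.0 FPKM in PHx24 (log2 fold change -1.72 ± 0.23, adjusted p = 0.000523), and its etomoxir effect at 48 h exceeded that at 24 h (1.89 ± 0.31, adjusted p = 0.0121), 1 of the 2 genes called for that difference among all 12376. The call for the difference was lost without PHx24_ETO 4 (adjusted p = 0.0763).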

How the data were processed

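Polyadenylated RNA of 27 liver samples in 5 groups was sequenced. Per the labels' protocols, TRIzol was used for extraction and NEBNext Ultra for the libraries. Per the submitters' processing notes, the tools were featureCounts 1.5.0-p3, HISAT2 2.0.5, CASAVA 1.8, DESeq2 1.20.0 and fastp, on GRCm38 (mm10). No annotation release or strand setting is given in the sources used here, and reads shared by Ugt1a genes or near-identical copies may be split or lost. The deposited table holds raw counts per gene and FPKM computed by the authors, whose library size follows a typical gene and not the library total.

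The 12376 genes that reached 1 FPKM in 4 or more libraries entered the test. Their counts were fitted over all libraries with R 4.3.3 and edgeR 4.0.16, using TMM factors and the quasi-likelihood F test. P-values were adjusted by Benjamini-Hochberg over these genes, and calls were made below 0.05. Each SE was derived from the log2 fold change and the square root of F, and intervals are at 95% from that SE. The biological coefficient of variation was 0.266. Alternatives were DESeq2 1.42.0, limma 3.58.1 on log2(FPKM + 1) and log2(FPKM + 0.1), other scalings and filters, the replicate number as a block, fits of 2 groups alone, and fits without single libraries.

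The members and gene lists were chosen with earlier results of these data known. Values are given for the highest member of each family and, per comparison and direction, for the called member of the largest log2 fold change in each class. Other tested members are given by group means or counts, with single values where a library stood apart, chosen after their values were seen. From each list the called gene of the largest log2 fold change was named, beside Nr1i2, Nr1i3, Ahr and Nfe2l2. Promoters were matched by symbol to RefSeq for 52 of the 60 members. Intervals rest on the SE of the fit, which includes the spread between libraries, while the limit of 3 counts covers counting error only. All 60 members were in GENCODE M21, 56 with the same coordinates.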

Additional observations from a re-analysis of the deposited data

Results flagged for a closer look

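Among groups of 4 to 7 libraries, 195 combinations of a tested member and a group were searched for a highest or lowest library that stood apart from the rest of its group by Dixon's criterion at the 95% level, applied to log2(FPKM + 1). 18 were found, and on plain FPKM 23 were, 14 of them in both. Sult1e1 and Gsta1 in PHx24_ETO 2 were found on plain FPKM only. The values below are in FPKM, and chance gives about 1 in 20 combinations. PHx24 2 was the lowest of its group in Gsta3 (81.2 FPKM, the others 147 to 188 FPKM), Sult2a7 (0.231 FPKM, the others 1.55 to 2.93 FPKM), Sult2a8 (9.66 FPKM, the others 42.5 to 95.0 FPKM), Ugt2b34 (94.4 FPKM, the others 159 to 198 FPKM), Ugt2b35 (60.6 FPKM, the others 100.3 to 131 FPKM) and Ugt2b5 (286 FPKM, the others 422 to 534 FPKM). PHx24_ETO 2 was the highest of its group in Gstp3 (45.7 FPKM, the others 22.9 to 23.2 FPKM), Gstt2 (27.5 FPKM, the others 18.8 to 20.0 FPKM), Gstt3 (30.0 FPKM, the others 6.88 to 8.72 FPKM) and Sult1d1 (128 FPKM, the others 26.9 to 28.8 FPKM). In the same 2 libraries the summed cholangiocyte markers were the highest of their groups (251 FPKM in PHx24_ETO 2 and 269 FPKM in PHx24 2), and their part in these levels was not tested. PHx24_ETO 1 was the highest of its group in Mgst3 (20.3 FPKM, the others 9.79 to 10.9 FPKM) and Sult2a8 (41.8 FPKM, the others 14.2 to 15.8 FPKM). Of the other high values, 1 was that of Gstp2 in PHx48_ETO 1 (26.9 FPKM, the others 4.95 to 6.05 FPKM), 1 that of Gstt1 in PHx24 5 (196 FPKM, the others 90.6 to 124 FPKM), 1 that of Sult1c2 in PHx24 4 (1.56 FPKM, the others 0.184 to 0.556 FPKM) and 1 that of Ugt1a7c in PHx48 5 (1.84 FPKM, the others 0.0703 to 0.187 FPKM). The other low values were those of Sult1c2 in sham 1 (1.15 FPKM, the others 2.08 to 2.35 FPKM) and Ugt1a6a in PHx48_ETO 4 (1.25 FPKM, the others 1.92 to 1.995 FPKM).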

How the results depend on the processing

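No call reversed its direction under any alternative. In PHx48 against PHx24 the 3 higher members became 5 with scaling to the library total, 5 with the replicate block, 7 in a fit of the 2 groups alone and 5 without PHx24 2 and PHx24_ETO 2 together, a setting chosen after seeing the data. The 3 lower members there became 1 without the filter on low values, 5 in a fit of the 2 groups alone, 1 without 4 libraries with muscle or pancreas transcripts (sham 1, sham 2, PHx24 1 and PHx48 3, while PHx48_ETO 4 was left out only on its own) and 6 without the pair. In PHx24_ETO against PHx24 the 1 higher member became 0 with DESeq2, with either limma fit, with the replicate block, in a fit of the 2 groups alone and without the pair. The 7 lower members there became 4 without the filter, 14 with DESeq2, 11 with limma on log2(FPKM + 0.1), 4 with the replicate block and 0 in a fit of the 2 groups alone. For the difference between the etomoxir effects, 0 higher members became 4 with DESeq2. The causes were not tested.

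Leaving out 1 library at a time gave 5 to 8 higher and 14 to 17 lower members in PHx24 against sham, 5 to 9 and 13 to 18 in PHx48 against sham, 3 to 6 and 2 to 5 in PHx48 against PHx24, 0 to 1 and 1 to 16 in PHx24_ETO against PHx24, 0 and 0 in PHx48_ETO against PHx48, and 0 to 7 and 0 to 1 for the difference. The labels do not say that a replicate number marks a pair, and in no comparison did the deviations of every same-numbered pair correlate above 0.1 (range -0.24 to 0.66). In PHx24 against sham 4 of 5 pairs did, and all 5 were positive (0.03 to 0.66), as were all 4 in PHx24_ETO against PHx24 (0.01 to 0.45). In no comparison did every library of the first group correlate best with its own number. By class, the block took the higher UGT to 1 in PHx24 against sham and to 1 in PHx48 against sham, the higher GST to 4 in PHx24 against sham and to 4 in PHx48 against PHx24, and the lower UGT in PHx48 against PHx24 to 2. In PHx24_ETO against PHx24 it left 2 lower UGT and 1 lower GST. The 21 members too low to be tested allow no statement at this depth. In PHx24_ETO against PHx24 the SE set the calls as well as the size: Gsta2 at -2.09 ± 0.60 did not pass and Ugt2b35 at -0.75 ± 0.19 did.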
